A study of Mus musculus with 4 samples.

Results

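*Scx*, *Tnmd*, *Mkx* and *Kera* are 4 genes used as marks of tendon identity, and they were taken by symbol from the 32288 features counted in single-cell RNA-seq of mouse hindlimb cells at E14.5. *Scx* encodes Scleraxis, a basic helix-loop-helix transcription factor and the earliest known mark of tendon and ligament progenitors. *Mkx* encodes Mohawk, a homeodomain transcription factor of the tendon lineage that promotes collagen production. *Tnmd* encodes Tenomodulin, a type II transmembrane glycoprotein of maturing tenocytes whose closest relative is *Cnmd* (Chondromodulin), which is made by cartilage. *Kera* encodes Keratocan, a small leucine-rich proteoglycan of cornea and tendon that binds collagen fibrils. Tendon and cartilage meet at the enthesis, where progenitors that carry both *Scx* and the cartilage factor *Sox9* are known.

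The 4 libraries came from SwissWebster outbred embryos and from 2 collections, each sorted into a tdT+ and a tdT- fraction. All embryos carried *Gli1CreER/+; R26LSL-tdTom/+; TigreTRE-p21/+*, so that tamoxifen (120 µg/g, given at E13.5) marked cells expressing *Gli1* at that time with tdTomato, and all received doxycycline (in sweetened drinking water at 1 mg/ml, and in food) from E12.5. The experimental *Pan-Cart-p21MOE* embryos (p21 hereafter) also carried *Col2a1-rtTA*, which drives the cell-cycle inhibitor p21 in cartilage, and control embryos did not. Each library held p21 and control cells of opposite sex, p21 males with control females in collection 1 and p21 females with control males in collection 2, and the condition of a cell was read from its sex-linked transcripts. Embryos of 1 condition, sex and collection were pooled, and the methods list a single p21 female, so p-values measure the spread between pools and sorts rather than between embryos.

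Of 18955 barcodes, 2739 cells passed the limits on quality, doublet score and sex (231 p21 and 231 control cells in tdT+ collection 1, 101 and 258 in tdT- collection 1, 652 and 275 in tdT+ collection 2, and 780 and 211 in tdT- collection 2), with a median of 16381 to 26992 UMIs (unique molecular identifiers, each standing for 1 captured transcript) per cell. The tdT- library of collection 2 lost 2747 cells that could not be assigned a sex, against 178 to 455 in the other libraries. Any pair of libraries shared at most 1 kept barcode. The UMI counts of all cells that shared a library and a condition were added up, which gave 8 sums (pseudobulks hereafter), 4 per fraction and 4 per condition. The labels held at the level of the transgenes. In chondrocyte-like cells the *tdt* feature had 18.3 to 23.1 CPM (UMI counts scaled to a common sequencing depth) in the tdT+ pseudobulks and 0.838 to 3.33 in the tdT- pseudobulks, and WPRE, an element of both the tdTomato and the p21 allele, had 982 to 1983 CPM in p21 and 71.5 to 582 CPM in control cells. *Cdkn1a*, the gene of p21, overlapped between conditions in these cells (57.7 to 74.5 CPM with p21, 21.5 to 94.7 in controls).

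All members are protein-coding genes in the GRCm38 annotation. *Scx* (ENSMUSG00000034161) lies on the plus strand of chromosome 15 (chr15:76457452-76459458), *Kera* (ENSMUSG00000019932, 3 exons) on the plus strand of chromosome 10 (chr10:97606879-97613692), and *Tnmd* (ENSMUSG00000031250, 7 exons) on the plus strand of the X chromosome (chrX:133850980-133865577). *Mkx* carries the identifier ENSMUSG00000061013. Since *Tnmd* is X-linked and sex marked the condition within a library, a fit with sex in the model was made beside every edgeR comparison. *Tnmd* in chondrocyte-like cells, which was too low for those fits, is given by sex instead.

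The members were sparse and their transcripts were concentrated in few cells. *Scx* was detected in 965 kept cells (35.2%), *Mkx* in 507 (18.5%), *Tnmd* in 405 (14.8%) and *Kera* in 116 (4.24%). A single UMI was all that was seen in 446 of the *Scx* cells, 258 of the *Mkx* cells, 172 of the *Tnmd* cells and 66 of the *Kera* cells. At the other end, 11 cells held 50% of the *Kera* UMIs, 33 cells that share of *Tnmd*, 61 of *Mkx* and 93 of *Scx*. The highest counts in 1 cell were 135 UMIs for *Tnmd*, 113 for *Scx*, 56 for *Kera* and 42 for *Mkx*.

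Most cells with a member held exactly 1 (843 cells, against 360 with 2, 90 with 3 and 40 with all 4), and the share that held another depended on which member was taken first. Of the 965 cells with *Scx*, 28.1% had *Tnmd*, 28.1% had *Mkx* and 82 cells had *Kera*. Of the 507 cells with *Mkx*, 53.5% had *Scx* and 26.2% had *Tnmd*. Of the 405 cells with *Tnmd*, 66.9% also had *Scx* (95% exact binomial interval 62.1 to 71.5), against 29.7% of cells without *Tnmd*. Of the 116 cells with *Kera*, 70.7% had *Scx* (61.5 to 78.8), 50.0% had *Mkx* (40.6 to 59.4) and 47.4% had *Tnmd* (38.1 to 56.9). These shares are a description, since cells with a member were also deeper (a median of 27438 UMIs with *Tnmd* and 21524 without). No member was detected in 1406 cells. Of the 40 cells with all 4, 33 were tdT-, and they lay in cluster 8 (22 cells), cluster 1 (17) and cluster 9 (1).

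The clusters were made without the 4 members, so a member's level is not what set them, but a cluster against the rest is no test and is given here as a description. Of 18 clusters, cluster 8 (178 cells, led by *Car10*, *Mybpc1*, *Brinp3*, *Itgbl1* and *Thbs4*) was tenocyte-like by markers that held no member. This name depended on the clustering. Without the limit on doublet score 43 cells were tenocyte-like, and 163 cells led by *Mybpc1*, *Egfem1* and *Itgbl1* were interzone-like. With barcodes from 3000 UMIs 114 cells were tenocyte-like, and 113 led by *Itgbl1* and *Tnn* were perichondrium-like. With coarser clustering no cluster was tenocyte-like. Cluster 10 (130 cells; *Pax9* and *Gdf5*) was interzone-like, the interzone being the cell layer that founds the joint. Cluster 9 (141 cells; *Isl1*, *Irx3* and *Irx5*) was patterning mesenchyme-like, cluster 15 osteoprogenitor-like and cluster 16 muscle-like. The chondrocyte-like class (799 cells) joined clusters 2 and 7 (proliferative), 6 (resting) and 12 (hypertrophic). The other clusters stayed unnamed, among them cluster 1 (357 cells; *Dcn*, *Akap12*, *Chodl* and *Osr1*), cluster 3 (319 cells; *Epha3*, *Thy1* and *Alpl*) and cluster 4 (234 cells; *Foxc2*, *Crabp1* and *Sostdc1*).

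*Scx* was the broadest member. It reached 141 CPM in cluster 1 and 138 in the tenocyte-like cluster, then 73.4 in cluster 3, 65.7 in the interzone-like cluster, 50.8 in cluster 4, 44.5 in the patterning mesenchyme-like cluster and 34.5 in the muscle-like cluster. The chondrocyte-like class had 8.80 CPM. Across pseudobulks of at least 10 cells, *Scx* ran from 61.6 to 340 CPM in cluster 1 (median 126) and from 34.6 to 279 in the tenocyte-like cluster (median 83.6), and it was above 0 in every pseudobulk of the 11 clusters that could be ordered this way.

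*Tnmd* was led by the tenocyte-like cluster (181 CPM), followed by cluster 1 (113), cluster 4 (65.3), cluster 3 (49.9) and the patterning mesenchyme-like cluster (26.5). It was low in the interzone-like cluster (2.71 CPM, 8 UMIs in 2 of 130 cells), a cluster in which *Scx* was seen in 54.6% of cells. The tenocyte-like cluster also had the widest spread, from 0 to 504 CPM over its 8 pseudobulks with a median of 39.5, whereas cluster 1 ran from 16.8 to 218 with a median of 97.0.

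*Mkx* had a different order. The tenocyte-like cluster (86.0 CPM) and the interzone-like cluster (74.8) led, with the patterning mesenchyme-like cluster next (44.8), and clusters 1 and 3 followed at 25.0 and 23.7. The interzone-like cluster was the steadiest of these, with 49.7 to 93.1 CPM over 5 pseudobulks. Cluster 4, which held *Scx* and *Tnmd*, had 5.94 CPM of *Mkx*. *Mkx* was also present in the chondrocyte-like class at 7.2 CPM, with 13.4 in the proliferative cluster 2 and 2.24 in the proliferative cluster 7.

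*Kera* was the narrowest. It had 59.2 CPM in the tenocyte-like cluster and 26.9 in cluster 1, and the next of the clusters with at least 3 pseudobulks of 10 cells was the patterning mesenchyme-like cluster at 5.07. Cluster 3 had 2 *Kera* UMIs, both in 1 of its 319 cells (0.235 CPM), although it held *Scx* in 60.8% and *Tnmd* in 25.4% of cells. The combinations therefore differed by cluster. All 4 members were present in the tenocyte-like cluster and cluster 1, *Scx* and *Mkx* with little *Tnmd* or *Kera* in the interzone-like cluster, and *Scx* and *Tnmd* with little *Kera* in clusters 3 and 4. In the order of every member each cluster overlapped the next one down in its range over pseudobulks.

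**Figure D1:**
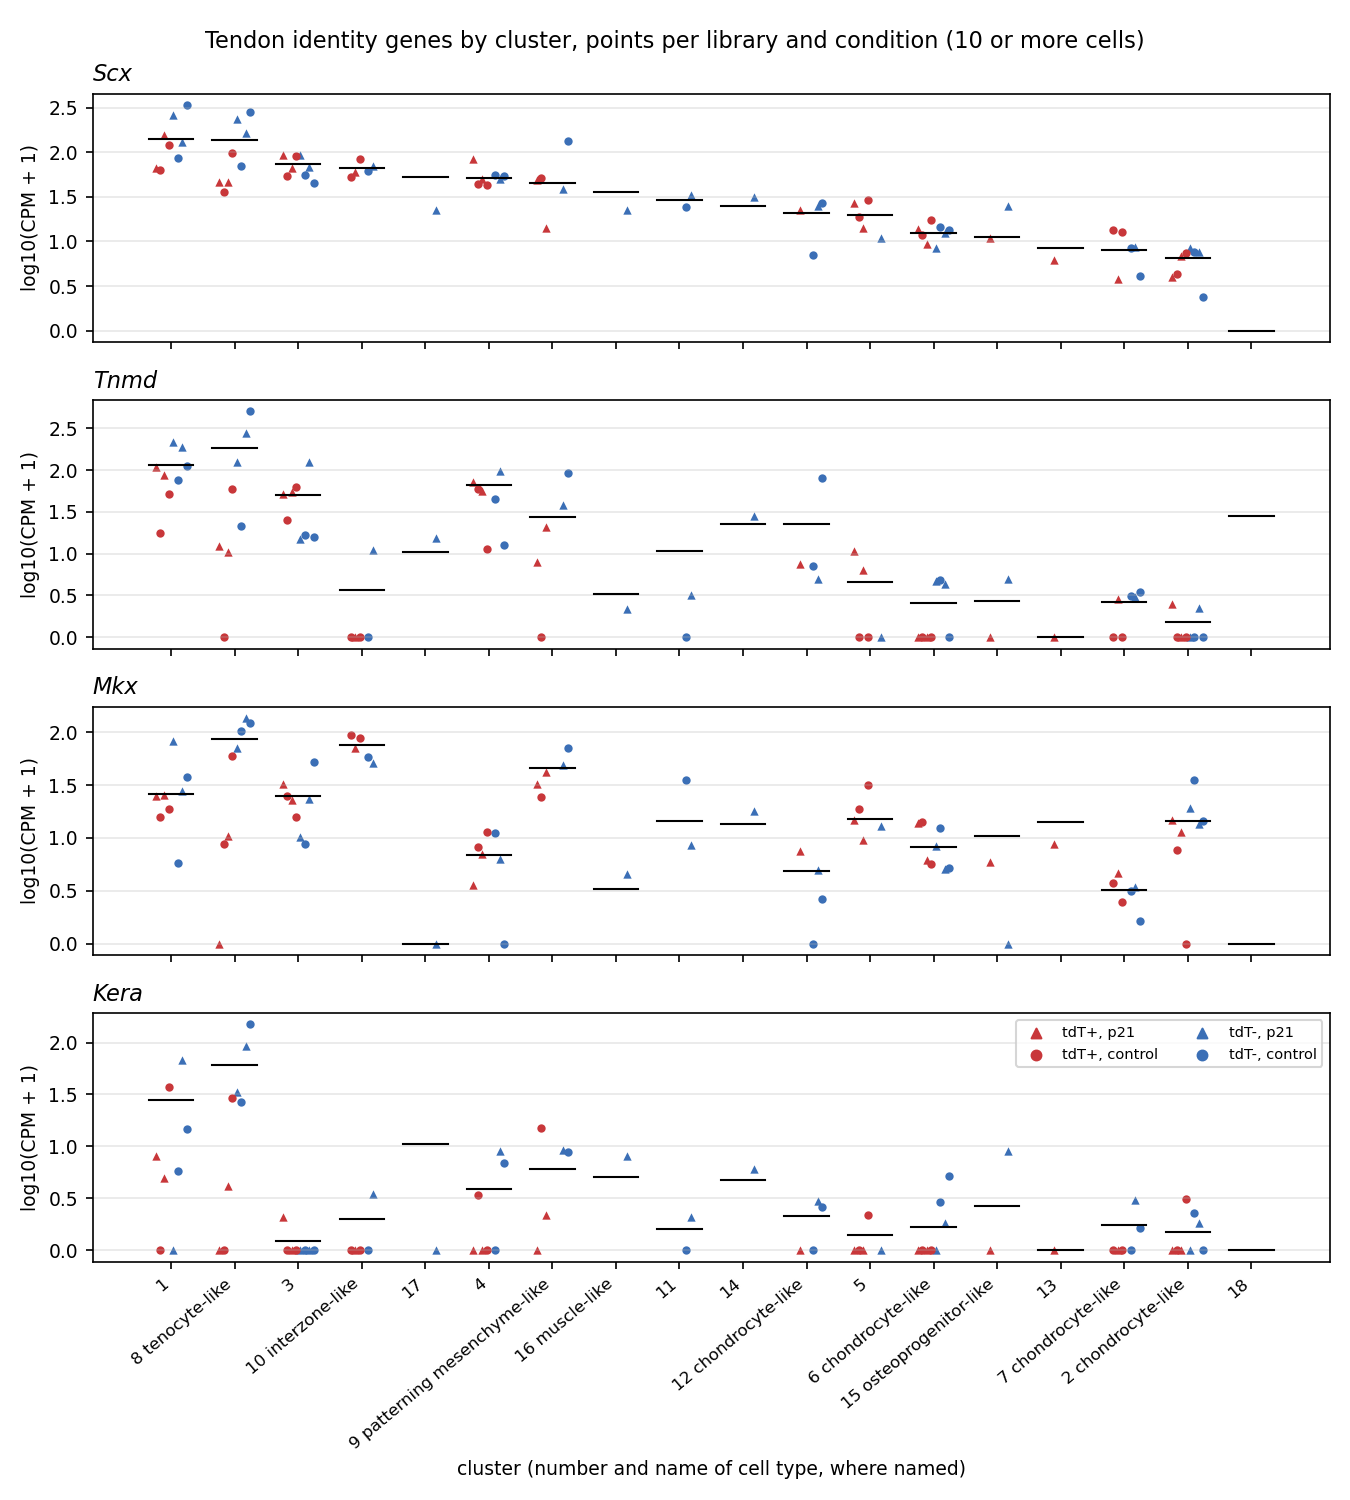
Level of each member by cluster, as log10(CPM + 1) on the vertical axis. Points are pseudobulks of at least 10 cells (red tdT+, blue tdT-; triangles p21, circles control), black lines are the level over all cells of the cluster, and clusters run from the highest *Scx* on the left. *Mkx* stands high in the interzone-like cluster 10, where *Tnmd* was 2.71 and *Kera* 1.02 CPM.

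The share of cells with a UMI followed the same broad pattern after depth was equalised. In the tenocyte-like cluster *Scx* was seen in 60.7% of cells, *Tnmd* in 40.4%, *Mkx* in 36.5% and *Kera* in 19.1%, and in 24.7, 21.9, 12.4 and 9.55% when every cell was thinned to 3000 UMIs. In the chondrocyte-like class the shares were 15.4, 3.88, 13.1 and 1.75%, and 1.92, 0.768, 2.82 and 0.128% after thinning.

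The genes with the most similar pattern were sought over 44 pseudobulks of cluster, library and condition with at least 20 cells, among 9505 genes, by Pearson's r of log2(CPM + 1). These points share libraries and clusters, so r is a description. *Ddah2* (r = 0.88), *Spry1* (0.88), *Egfl6* (0.88), *Ednra* (0.85) and *Il17rd* (0.84) were most like *Scx*. *Map1lc3a* (0.82), *Meox1* (0.80), *Scx* itself (0.79), *Meox2* (0.79) and *Opcml* (0.78) were most like *Tnmd*. *Lgr5* (0.77), *Ppm1l* (0.77), *Uhrf2* (0.76), *Fstl1* (0.76) and *Col5a1* (0.76) were most like *Mkx*, and *Ntrk3* (0.72), *Dcn* (0.67), *Brinp3* (0.66), *Thbs4* (0.65) and *Cntnap4* (0.65) most like *Kera*. Among the members themselves *Scx* and *Tnmd* were the most alike and *Mkx* and *Kera* the least (0.30). *Cnmd*, the relative of *Tnmd*, ran the other way to *Tnmd* (-0.62) and to *Scx* (-0.74).

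The cells that held the members' UMIs differed between the sorted fractions. In tdT+ cells *Tnmd* had 997 UMIs, of which cluster 1 held 41.6%, cluster 3 34.5%, cluster 4 14.3%, the tenocyte-like cluster 4.71% and the chondrocyte-like class 0.602%. In tdT- cells *Tnmd* had 2075 UMIs, of which the tenocyte-like cluster held 42.9%, cluster 1 37.5%, cluster 4 6.36%, cluster 3 3.90% and the chondrocyte-like class 3.57%. The tenocyte-like cluster likewise held 6.36% of the *Mkx* UMIs in tdT+ cells and 44.6% in tdT- cells, and 6.46 and 29.1% of the *Scx* UMIs. *Kera* had 91 UMIs in all in 1389 tdT+ cells and 569 in 1350 tdT- cells. Cell numbers moved less than UMIs. The tenocyte-like cluster was 4.39% of all tdT+ and 8.67% of all tdT- kept cells (4.96 ± 1.55% and 8.95 ± 3.22%, SD, n = 4 pseudobulks each; exact two-sided permutation test, p = 0.0857).

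**Figure D2:**
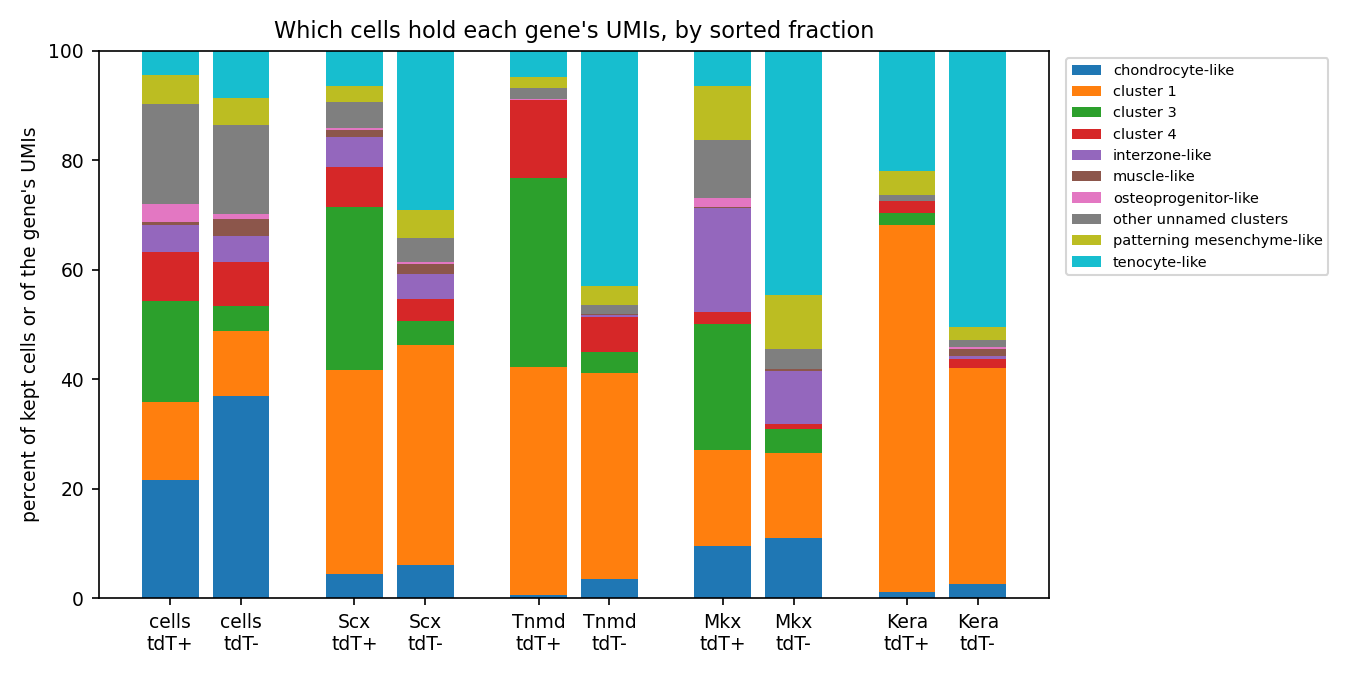
Stacked bars give, on the vertical axis in percent, how the kept cells and the UMIs of each member divide over clusters in the tdT+ and the tdT- fraction. The tenocyte-like cluster holds 4.71% of the *Tnmd* UMIs of the tdT+ fraction and 42.9% of those of the tdT- fraction.

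*Tnmd* in chondrocyte-like cells was next examined, since it appeared mostly in the tdT- fraction. The class held 80 *Tnmd* UMIs in 31 of 799 cells. In the tdT- fraction there were 74 UMIs in 26 of 499 cells (5.21%, exact binomial interval 3.43 to 7.54; 5.45 CPM, Poisson interval 4.28 to 6.85), and in the tdT+ fraction 6 UMIs in 5 of 300 cells (1.67%, 0.543 to 3.85; 0.633 CPM, 0.232 to 1.38). These intervals cover counting error only. By pseudobulk *Tnmd* had 0.623 CPM in p21 and 0 in control cells of tdT+ collection 1, 1.05 and 0 in tdT+ collection 2, 1.11 and 2.10 in tdT- collection 1, and 2.26 and 16.3 in tdT- collection 2. All 4 tdT- values were above all 4 tdT+ values, as for 1.23% of all genes tested in these cells, a set that *Tnmd* was too low to enter. The separation was narrow. The lowest tdT- value (1.11) was 1 UMI in 36 cells, and the highest tdT+ value (1.05) was 5 UMIs in 149 cells. The tdT- control value of collection 2 stood far above the rest. The order of the fractions was the same within each sex. Males (p21 of collection 1 and control of collection 2) had 0.623 and 0 CPM in tdT+ and 1.11 and 16.3 in tdT- cells, where 0.623 and 1.11 were 1 UMI each. Females had 0 and 1.05 in tdT+ and 2.10 and 2.26 in tdT- cells.

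The value of 16.3 CPM rested on 1 cell. A control cell of tdT- collection 2 held 46 of the 74 UMIs, all other *Tnmd*-positive chondrocyte-like cells had 1 or 2, and it was singled out after its values had been seen. It belonged to the hypertrophic cluster 12, had 50352 UMIs in all (a median of 14554 in that cluster), and carried 335 UMIs of *Col2a1*, 46 of *Col10a1* and 18 of *Cnmd* beside 9 of *Scx*, 25 of *Col1a1*, 10 of *Fmod*, 1 of *Mkx* and 0 of *Kera*. All 16 chondrocyte markers were detected in it, at a summed 22184 CPM against a median of 21994 in cluster 12 and 3375 in the tenocyte-like cluster. Of the 12 tenocyte markers 8 were detected, at 1033 CPM against medians of 667 in cluster 12 and 3131 in the tenocyte-like cluster. Its doublet score of 0.088 was at the 94.6th percentile of the kept cells of its library, and the highest score kept was 0.108. With the highest 10% of scores per library left out, cluster 12 had 24.1 CPM of *Tnmd*, against 21.6 before. This cell was therefore not among those left out. Whether it was a doublet was not tested.

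Without this cell the tdT- chondrocyte-like cells held 28 *Tnmd* UMIs in 25 of 498 cells (5.02%, 3.27 to 7.32; 2.07 CPM, 1.38 to 2.99), 22 of them with 1 UMI and 3 with 2. Its pseudobulk then had 1.91 in place of 16.3 CPM. Muscle-like tdT- cells, taken for comparison and not shown to lack *Tnmd*, had 4 UMIs in 3 of 44 cells (6.82%, 1.43 to 18.7). That was 2.98 CPM (0.812 to 7.63) at a median depth of 23185 UMIs, against 22362 in the chondrocyte-like cells. Interzone-like tdT- cells had 8 UMIs in 2 of 62 cells (3.23%, 0.393 to 11.2; 5.70 CPM, 2.46 to 11.2). In the interzone-like cells 7 of the 8 UMIs lay in 1 cell. The muscle-like tdT- cells also had *Scx* in 45.5%, *Mkx* in 6.82% and *Kera* in 13.6% of cells. The share of tdT- chondrocyte-like cells with *Tnmd* was below that of the muscle-like cells and inside both intervals. Those intervals are too wide to tell expression from background, and the source of these UMIs was not tested. Barcodes under 1000 UMIs, which were left out as cells, had *Tnmd* at 26.9 CPM in the tdT- and 21.1 CPM in the tdT+ libraries. In the tdT+ fraction the muscle-like cells were 7, too few to compare (0 of 7 cells, which allows a share of up to 42.9%). In 68 interzone-like tdT+ cells 0 *Tnmd* UMIs were found, which allows a share of up to 4.41%.

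Over the 4 chondrocyte-like clusters the tdT- level was 0.717 CPM in the proliferative cluster 2, 2.08 in the proliferative cluster 7, 3.11 in the resting cluster 6 and 28.8 in the hypertrophic cluster 12, the last holding the cell of 46 UMIs. In the same order *Tnmd* was seen in 1.66, 7.03, 5.26 and 10.5% of tdT- cells. In tdT+ cells the shares were 0.709, 3.125, 0 and 14.3%. The tdT+ share was lower in clusters 2, 7 and 6. It was higher in cluster 12, on 3 UMIs in 2 of 14 cells (interval 1.78 to 42.8%). Cluster 12 held 76 of the 499 tdT- and 14 of the 300 tdT+ chondrocyte-like cells. The part of this mix in the difference between fractions was not tested. The tdT- cells with *Tnmd* had *Scx* in 7 of 26 cells, *Mkx* in 4 and *Kera* in 0. *Scx* was seen in 12.9% of the tdT- chondrocyte-like cells without *Tnmd*, and this difference was not tested. Tenocyte markers summed to 568 to 796 CPM in tdT- and 636 to 943 CPM in tdT+ chondrocyte-like pseudobulks, with at most 2 of 12 at 0. These sums cover all cells of a pseudobulk, most of them without *Tnmd*, so they do not describe the cells that held it. *Cnmd* had 739 to 915 CPM in tdT- and 793 to 835 CPM in tdT+ chondrocyte-like cells.

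The mean over pseudobulks was 5.44 ± 7.26 CPM in tdT- and 0.419 ± 0.515 CPM in tdT+ chondrocyte-like cells (SD, n = 4 each). The exact two-sided permutation test gave p = 0.0286, the smallest that 4 against 4 allow, and the adjusted p was 0.152 over the 16 permutation tests made. Without the cell of 46 UMIs the difference shrank from -5.02 to -1.42 CPM and the permutation p stayed at 0.0286. With tdT+ and tdT- cells of a pool kept as pairs, a replicate block, the exact p was 0.125, the smallest that 4 pairs allow. The share of cells with a UMI was 1.21 ± 1.42% and 4.77 ± 1.75% (exact permutation p = 0.0286, adjusted p = 0.152; with the block exact p = 0.125), and after thinning 0 of 299 tdT+ and 6 of 482 tdT- cells held *Tnmd* (exact permutation p = 0.143). The difference between fractions did not pass after correction.

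**Figure D3:**
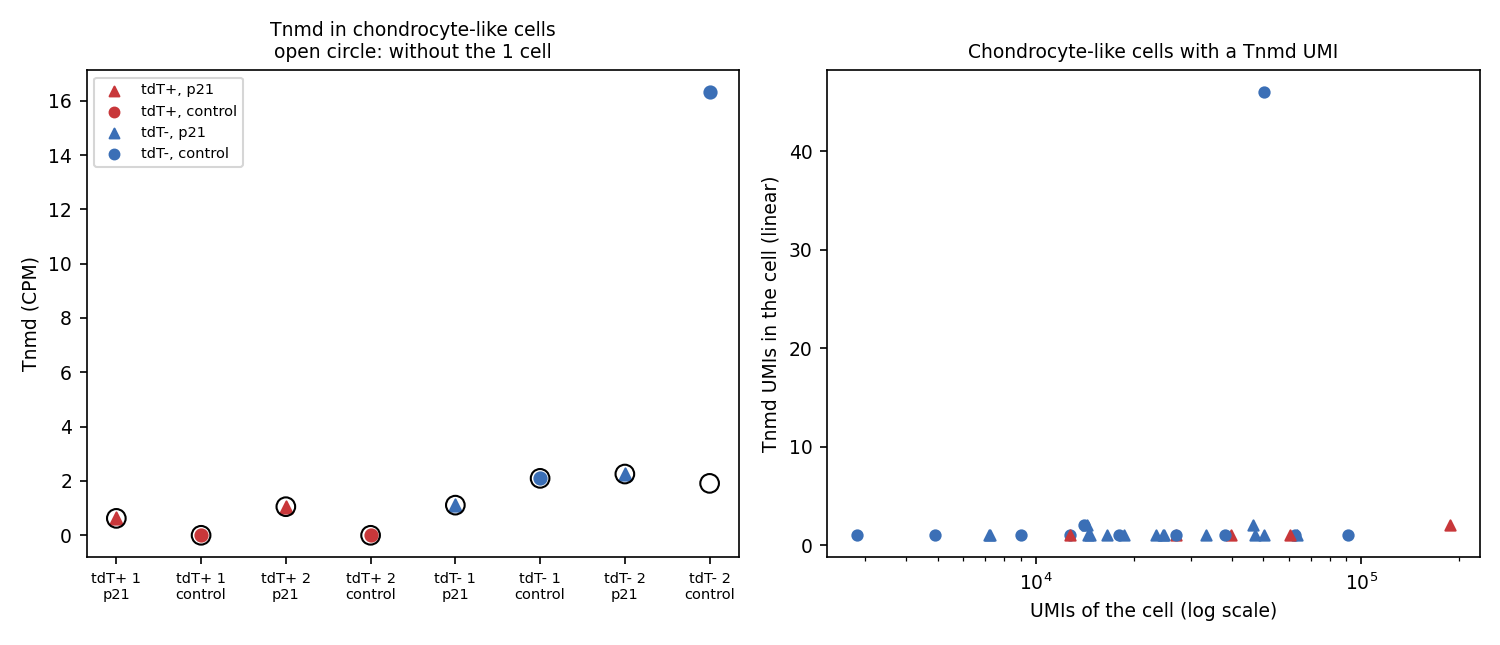
Left, *Tnmd* in CPM in the chondrocyte-like cells of each pseudobulk, with open circles giving the value without the cell of 46 *Tnmd* UMIs. Right, *Tnmd* UMIs (linear axis) against all UMIs (log axis) for the 31 chondrocyte-like cells with *Tnmd*. Only that cell lies above 2 UMIs, and its pseudobulk drops from 16.3 to 1.91 CPM without it.

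No difference between fractions in chondrocyte-like cells passed the test for the other members. *Scx* had 8.73 ± 2.18 TMM-scaled CPM in tdT+ and 8.62 ± 1.18 in tdT- pseudobulks (log2 difference -0.07 ± 0.26 SE, edgeR quasi-likelihood test, adjusted p = 1.00; 95% interval -0.57 to 0.43). *Mkx* had 6.84 ± 3.44 and 8.15 ± 4.42 (-0.21 ± 0.45, adjusted p = 1.00; -1.09 to 0.67). *Tnmd* and *Kera* did not reach the count filter here, and *Kera* had 0.152 ± 0.304 and 0.797 ± 0.587 CPM (exact permutation p = 0.143). Of 11559 genes tested 2 were called (0.0173%).

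In tenocyte-like cells the members were low in the tdT+ fraction. *Tnmd* had 11.4, 0, 9.33 and 58.0 TMM-scaled CPM in the tdT+ pseudobulks (p21 and control of collection 1, then of collection 2) and 122, 20.8, 285 and 504 in the matching tdT- pseudobulks. *Mkx* had 0, 7.58, 9.33 and 58.0 in tdT+ and 68.8, 104, 138 and 120 in tdT-. The *Mkx* groups did not overlap, which held in the same direction for 3.31% of all genes tested, and the *Tnmd* groups overlapped through the control cells of tdT- collection 1.

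*Scx* had 45.6, 34.1, 45.1 and 97.1 TMM-scaled CPM in tdT+ and 233, 70.1, 168 and 279 in tdT- tenocyte-like cells. *Kera* had 0, 0, 3.11 and 28.2 in tdT+ and 31.8, 26.0, 93.7 and 148 in tdT-. Both overlapped by 1 pseudobulk on either side, the tdT+ control of collection 2 and the tdT- control of collection 1. Each tdT+ pseudobulk of this cluster held only 11 to 19 cells.

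**Figure D4:**
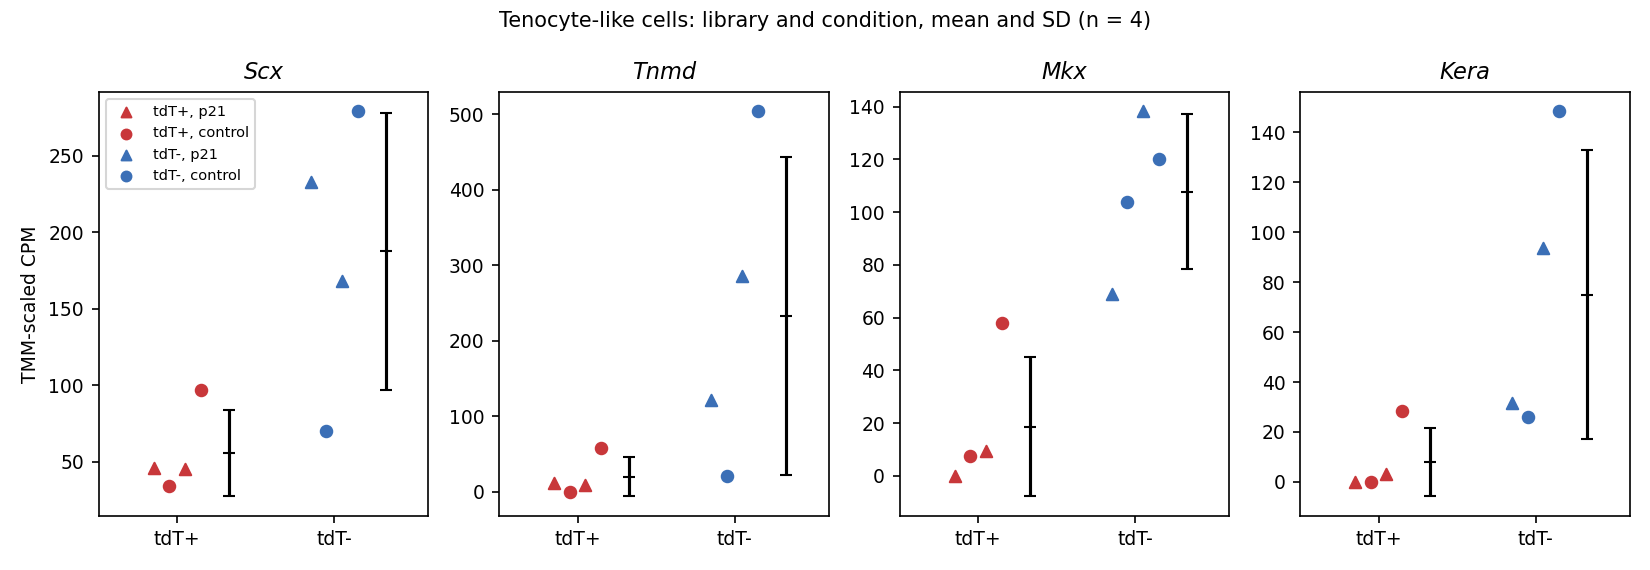
TMM-scaled CPM of each member in the tenocyte-like cells of the 8 pseudobulks (triangles p21, circles control), with the mean and SD of each fraction (n = 4). The *Mkx* points of tdT+ cells, up to 58.0, lie under those of tdT- cells, from 68.8.

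None of the 4 differences passed the edgeR quasi-likelihood test with Benjamini-Hochberg adjustment over 7503 genes, in which 106 genes were called (1.41%). The log2 differences of tdT+ against tdT- cells were -1.71 ± 0.42 (SE) for *Scx* (adjusted p = 0.0784), -3.46 ± 0.85 for *Tnmd* (0.0806), -2.47 ± 0.58 for *Mkx* (0.0669) and -3.08 ± 0.77 for *Kera* (0.0816). With the embryo pool as a replicate block all 4 passed, at adjusted p = 0.00963, 0.00268, 0.0319 and 0.00963, among 172 of 8101 genes called (2.12%). Which side of the threshold they fell on therefore depended on the pairing, among other choices. The direction turned for *Scx* (0.76) and *Tnmd* (0.24) when barcodes from 3000 UMIs were clustered again (edgeR adjusted p = 0.706 and 0.964). All 178 cells of cluster 8 had at least 3000 UMIs, so what changed was which cells were named tenocyte-like. In that clustering 114 cells were so named, with 5 and 11 tdT+ p21 cells and 5 tdT+ control cells, these last from collection 2 alone.

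*Cnmd* went the other way and passed, at 1.15 ± 0.22 higher in tdT+ tenocyte-like cells (adjusted p = 0.0351). Its TMM-scaled level was 379, 201, 467 and 232 CPM in the tdT+ pseudobulks and 230, 90.9, 128 and 125 in the tdT- pseudobulks, which overlapped at 201 and 230. WPRE rose by 3.18 ± 0.18 in tdT+ cells (adjusted p = 1.06e-05). Other lists were summed over the same pseudobulks, and their part in the members' difference was not tested. G2M genes, the genes of late cell cycle, summed to 8374 to 12378 CPM in tdT+ and 3791 to 6658 in tdT- pseudobulks without overlap. Of 50 tested, 8 were called higher in tdT+ cells and 0 lower. Chondrocyte markers, none of 16 at 0 in any pseudobulk, summed to 4622 to 5745 CPM in tdT+ and to 2993 to 5932 CPM in tdT-. In tdT- the p21 cells of collection 1 were above every tdT+ value. Of 15 tested, 2 were called higher in tdT+ cells, *Cnmd* among them, and 0 lower. Dissociation stress genes summed to 6105 to 8179 CPM in tdT+ and 8067 to 9999 in tdT-. Tenocyte markers overlapped (2578 to 3936 and 3095 to 5603 CPM, at most 3 of 12 at 0), and none of the 9 tested passed.

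Other tendon genes were read from lists of matrix genes, regulators and enthesis genes. Of 27 tendon matrix genes tested in tenocyte-like cells 3 fell in the tdT+ fraction, *Htra1*, a secreted serine protease (-1.87 ± 0.22, adjusted p = 0.0110), *Bgn*, the proteoglycan biglycan (-1.07 ± 0.21, 0.0377) and *Col5a1*, a fibril-nucleating collagen chain (-0.87 ± 0.17, 0.0377), and the list median was -0.38 against 0.00 over all genes. None of 25 regulators passed, and the lowest p was that of *Foxc2* (1.99 ± 0.49, adjusted p = 0.0784). Of 11 enthesis genes *Ptch1*, the Hedgehog receptor and a target of *Gli1*, rose (1.62 ± 0.27, 0.0241) and *Bgn* fell.

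Over all kept cells, where a difference can come from cell numbers as well as from RNA per cell, the log2 difference of tdT+ against tdT- cells was -2.38 ± 0.77 for *Kera* (adjusted p = 0.141), -1.03 ± 0.39 for *Tnmd* (0.201), -0.47 ± 0.13 for *Mkx* (0.0873) and -0.45 ± 0.28 for *Scx* (0.434). In this edgeR fit 303 of 14862 genes were called (2.04%). With the pool as a replicate block *Mkx* passed (adjusted p = 0.0474) and *Kera* did not (0.0552), among 521 of 15363 genes called (3.39%). *Mkx* had 17.0 to 22.8 TMM-scaled CPM in tdT+ and 23.2 to 29.7 in tdT- pseudobulks, groups that did not overlap, as for 4.43% of genes in that direction. *Kera* was detected in 1.30, 2.16, 1.23 and 1.82% of the tdT+ cells of the 4 pseudobulks and in 4.95, 3.10, 8.72 and 6.64% of the tdT- cells (exact permutation p = 0.0286, adjusted p = 0.152; with the block exact p = 0.125; after thinning exact permutation p = 0.0857).

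Of 31 tendon matrix genes tested in all kept cells, *Thbs2* (1.05), *Aspn* (0.99), *Fbn1* (0.56) and *Col3a1* (0.43) rose and *Comp* (-1.41) and *Htra1* (-1.30) fell in tdT+ cells. Among 26 regulators *Prrx1* (0.77) and *Ebf1* (0.63) rose and *Spry2* (-0.65) fell, and among 14 enthesis genes *Hhip* (1.30) and *Ptch1* (0.51), both Hedgehog targets, rose and *Gdf5* (-1.44) and *Col2a1* (-0.73) fell.

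p21 was driven in cartilage, and the members were therefore compared between p21 and control cells first in the chondrocyte-like class. *Scx* had 6.64, 7.60, 7.16 and 10.3 TMM-scaled CPM in the p21 pseudobulks and 9.98, 8.49, 11.2 and 8.10 in the control pseudobulks (tdT+ and tdT- of collection 1, then of collection 2). The ranges overlapped and the log2 difference was -0.17 ± 0.26 (edgeR quasi-likelihood test, adjusted p = 0.965; 95% interval -0.67 to 0.33). *Mkx* had 10.9, 7.60, 7.37 and 6.35 with p21 and 6.65, 14.4, 2.48 and 4.21 in controls (0.16 ± 0.45, adjusted p = 0.947; -0.72 to 1.05). In the same fit 89 of 11559 genes were called (0.770%).

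*Tnmd* had 1.26 ± 0.698 CPM in p21 and 4.60 ± 7.87 CPM in control chondrocyte-like cells (exact permutation p = 0.8), the difference turning from -3.34 to 0.26 CPM without the cell of 46 UMIs (p = 0.771). *Kera* had 0.352 ± 0.705 and 0.597 ± 0.421 CPM (exact permutation p = 0.486). The difference between p21 and control did not depend detectably on the fraction, with an interaction of -0.80 for *Scx* and 1.38 for *Mkx* on the log2 scale (adjusted p of 1.00 for both by edgeR), where 1 of 12031 genes was called (0.00831%). From the lists, 1 of 27 tendon matrix genes, 0 of 24 regulators and 1 of 13 enthesis genes changed. *Tnc*, the matrix glycoprotein tenascin-C, fell by 0.81 on the log2 scale (edgeR adjusted p = 0.00680) and *Klf2*, a Kruppel-like transcription factor, by 0.66 (0.00680). This fit counted the tdT+ and tdT- sorts of a pool as separate values. With the sorts of a pool summed fewer genes were called, and whether *Tnc* and *Klf2* were among them is not given here. Other lists had lower estimates with p21 in the fit of separate sorts. Their part in the values of the members, *Tnc* and *Klf2* was not tested. Dissociation stress genes had a median of -0.25 (2 of 23 fell; sums of 11551 to 14255 CPM with p21 and 14249 to 18594 in controls), G2M genes -0.34 (2 of 51 fell; 44 estimates below 0) and S phase genes -0.24 (1 of 42 fell; 37 below 0), against 0.00 over all genes.

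In tenocyte-like cells WPRE had 56.4 to 506 CPM with p21 and 28.3 to 375 in controls. The members differed by -0.17 ± 0.41 (*Scx*), -0.73 ± 0.80 (*Tnmd*), -0.74 ± 0.55 (*Mkx*) and -0.85 ± 0.70 (*Kera*) on the log2 scale, with edgeR adjusted p of 1.00 for each. The 95% intervals were wide, from -2.29 to 0.84 for *Tnmd* and from -2.22 to 0.52 for *Kera*. A large fall of either gene, or a smaller rise, could have gone undetected with these cells. Of 7503 genes 0 were called (0%), with 338 at an unadjusted p under 0.05, and DESeq2 called 3.

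Over all kept cells the p21 difference was -0.01 ± 0.28 for *Scx*, 0.45 ± 0.39 for *Tnmd*, 0.07 ± 0.13 for *Mkx* and -0.37 ± 0.75 for *Kera* (edgeR adjusted p of 0.999, 0.873, 0.953 and 0.962; 7 of 14862 genes called, 0.0471%). The interval of *Mkx*, from -0.18 to 0.32, was the narrowest of the 4. *Tnmd* had 36.3, 45.5, 27.5 and 73.5 CPM in p21 cells and 15.7, 13.4, 29.0 and 75.6 CPM in control cells (tdT+ and tdT- of collection 1, then of collection 2), higher with p21 in both fractions of collection 1 and slightly lower in both of collection 2. Since p21 cells were male in collection 1 and female in collection 2, *Tnmd* was higher in the male cells of each library. *Scx* had the same order in each library, and *Mkx* and *Kera* in each but tdT- collection 2. The share of all genes with this order was not counted. Male cells were also deeper in each library, with medians of 28764, 20383, 23034 and 26301 UMIs. Female cells had 24401, 12788, 21553 and 21205 (tdT+ and tdT- of collection 1, then of collection 2). Clusters 13 and 14 were mostly female p21 cells of collection 2 (79 of 84 and 58 of 64 cells). Whether sex, depth or the mix of clusters set this order was not tested. The share of cells with a member differed by no more than 2.37 percentage points between p21 and control for any member (exact permutation p from 0.286 to 1.00), and the tenocyte-like share was 7.69 ± 4.35% with p21 and 6.22 ± 1.73% in controls (p = 0.571, exact).

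**Figure D5:**
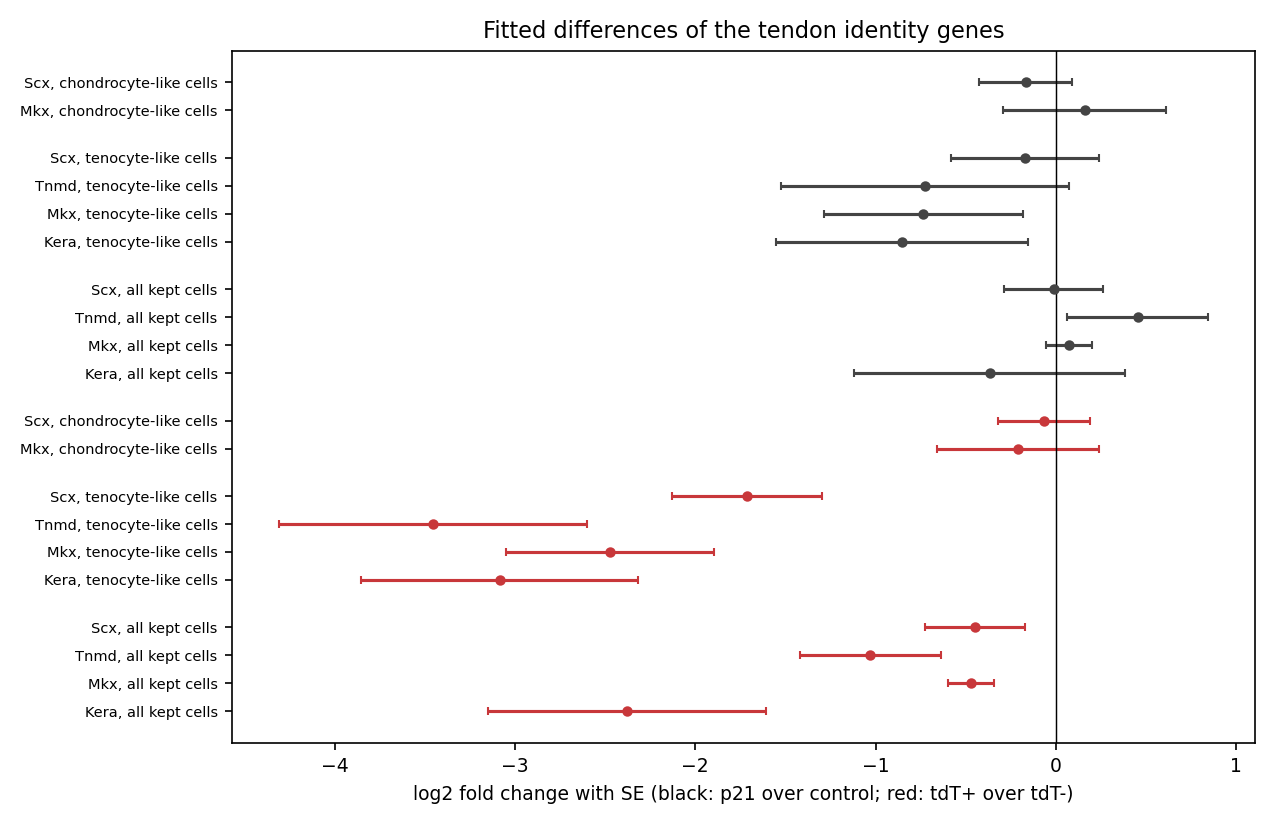
Fitted log2 differences of the members with SE on the horizontal axis, p21 over control in black and tdT+ over tdT- in red, in chondrocyte-like cells, tenocyte-like cells and all kept cells. The p21 estimates lie between -0.85 and 0.45, and the tdT+ estimates in tenocyte-like cells between -3.46 and -1.71.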

How the data were processed

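Hindlimb cells were profiled with the 10x Genomics 3′ chemistry. The deposited files hold UMI counts per gene and barcode, which the authors made with Cell Ranger 7.2.0 (submitters' processing notes, which name GRCm38 and mm10) on a mouse reference with added transgene features. Nothing was normalized in them, and every sample column was used.

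Barcodes were kept from 1000 UMIs and 500 genes, up to 10% mitochondrial UMIs, with at least 2 UMIs of sex-linked genes of which at least 80% (0.8 of them) belonged to one sex, and outside the highest 5% of Scrublet-type doublet scores per library. scanpy 1.11.5 (Python 3.11.15) clustered cells by Leiden at a resolution of 1 without the members, sex genes, transgenes, *Cdkn1a*, *Ccn2*, histone, mitochondrial and cell-cycle genes. Clusters were named from at least 3 detected markers, with thresholds set after the clusters had been seen. The authors' cell annotation was not used here, so names are rebuilt.

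UMI counts were summed per library and condition, and fitted with edgeR 4.0.16 (R 4.3.3; filterByExpr, TMM, quasi-likelihood test, fraction and condition in the model, Benjamini-Hochberg over all genes tested, threshold 0.05). Single values were compared with exact two-sided permutation tests over 70 assignments. SE is the log2 difference over the root of F. CPM without further mention is scaled by the total UMIs of a pseudobulk or cluster alone. The fits were tested on simulated counts. Alternatives were DESeq2 1.42.0 and RLE scaling, no count filter, other cell limits and resolution 0.5, sex in the model, blocks, summed fractions or conditions, thinning to 3000 UMIs, and leaving out each pseudobulk; the fit without the cell of most *Tnmd* UMIs was chosen after seeing the data.

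The tdT fractions of a pool come from the same embryos by the labels' collection number, and the p21 and control cells of a library from 1 run. Deviations from the group means correlated between the fractions of a pool at r of 0.020 to 0.417, over 4 pools and 3 cell sets.

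The members and lists were chosen with earlier results of these data known. Named genes were the members, *Cnmd*, *Cdkn1a* and the transgenes, the 5 genes most like each member, and list genes that passed or, failing that, had the lowest p. Depth per library was 11945062 to 39435830 UMIs. Binomial and Poisson intervals (95%, exact) and the limits for a count of 0 (3 counts) cover counting error only.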

Additional observations from a re-analysis of the deposited data

Results flagged for a closer look

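In 48 groups of 4 pseudobulks, 8 had 1 value whose gap to the nearest other, over the group's range, was above Dixon's critical value. Chance flags about 1 in 20 separate groups of normally spread values. Here each value lay in both a fraction and a condition group, so the 8 cannot be set against that rate. Values are TMM-scaled CPM. *Tnmd* in chondrocyte-like cells stood at 16.8 in the control cells of tdT- collection 2, apart from both the other tdT- and the other control pseudobulks, and 46 of its 52 UMIs lay in 1 cell. *Tnmd* in tenocyte-like cells stood at 504 in the same control cells, apart from the other control pseudobulks (0 to 58.0). *Mkx* at 58.0 and *Kera* at 28.2 in the tenocyte-like cells, and *Kera* at 8.76 in all kept cells, stood apart among the tdT+ pseudobulks in the control cells of tdT+ collection 2. *Kera* in chondrocyte-like cells was above 0 in 1 of 4 tdT+ pseudobulks (0.620, control of collection 2) and in 1 of 4 p21 pseudobulks (1.41, tdT- collection 2), both values of few UMIs.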

How the results depend on the processing

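Of the differences of single members, those between p21 and control stayed outside the threshold in all alternatives but 1 (*Tnmd* in all kept cells passed with no count filter, 0.46, adjusted p = 0.00317). In tenocyte-like cells the lower tdT+ estimates kept their direction in every alternative run but 1. With barcodes from 3000 UMIs clustered again *Scx* turned to 0.76 and *Tnmd* to 0.24. Without the tdT- control of collection 1 *Scx*, *Tnmd* and *Kera* passed (adjusted p = 0.0100, 0.0100 and 0.0240), and without the tdT+ control of collection 2 *Mkx* and *Kera* (0.0190 and 0.0453). DESeq2 passed *Scx* (0.00580) and *Mkx* (0.00142), sex in the model *Scx* (0.0237), and the conditions of a library summed *Scx* (0.0434) or, with the collection as a replicate block, all 4. With no count filter all 4 passed in tenocyte-like and in all kept cells. In all kept cells *Mkx* also passed with sex in the model (0.0445), *Kera* with summed conditions and the collection block (0.00316), *Tnmd* without the tdT- control of collection 1 (0.0415) and *Kera* without the tdT+ control of collection 2 (0.0424). Resolution 0.5 was not run for tenocyte-like cells, because no cluster was named so there. The causes of these changes were not tested. Each pseudobulk of few cells limits what can be detected, and *Tnmd* and *Kera* in chondrocyte-like cells lay at a few UMIs.

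Genes called with p21 in chondrocyte-like cells numbered 89, and 169 by DESeq2, 497 with no count filter, 30 with no doublet filter, 145 at resolution 0.5, 16 with the fractions of a pool summed, and 19 to 64 with 1 pseudobulk left out. In tenocyte-like cells they numbered 0, and 3 by DESeq2, 98 with no count filter, 1 with the library as a replicate block, 1 with fractions summed, and 0 to 0 with 1 left out. In all kept cells they numbered 7, and 64 by DESeq2, 457 with no filter, 4 with no doublet filter, 2 with the library as a replicate block, 0 with no covariate, 0 with fractions summed, and 1 to 12 with 1 left out. For tdT+ against tdT- in chondrocyte-like cells 2 became 10 by DESeq2, 121 with no filter, 12 with no doublet filter, 5 from 3000 UMIs, 1 at resolution 0.5, 5 with sex in the model, 8 with the pool as a replicate block, 22 with the conditions of a library summed and the collection as a replicate block, and 1 to 3 with 1 left out. In tenocyte-like cells 106 became 218 by DESeq2, 540 with no filter, 0 with no doublet filter, 5 from 3000 UMIs, 172 with the pool as a replicate block, 223 summed with the collection block, and 5 (without the tdT- control of collection 2) to 141 with 1 left out. In all kept cells 303 became 654 by DESeq2, 1709 with no filter, 521 with the pool as a replicate block, 152 summed without the block, and 49 to 708 with 1 left out. The interaction had 1 gene, and 37 with no filter, 2 with sex in the model, 0 under RLE scaling, no doublet filter, 3000 UMIs, resolution 0.5 and the library block, and 0 to 2 with 1 left out.

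Directions turned for values that had not passed. For p21 in chondrocyte-like cells *Scx* was 0.012 at resolution 0.5, and *Mkx* -0.093 with no doublet filter and -0.24 from 3000 UMIs. In tenocyte-like cells *Scx* was 0.53 with no doublet filter, 0.23 from 3000 UMIs, 0.093 with sex in the model and 0.18 with fractions summed, and *Tnmd* 0.59 from 3000 UMIs and 0.019 with fractions summed. In all kept cells *Scx* was 0.017 by DESeq2, 0.10 with sex and 0.059 with the library block, and *Kera* 0.14 with no covariate and 0.20 with fractions summed. *Mkx* for tdT+ in chondrocyte-like cells was 0.022 from 3000 UMIs.

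With 1 pseudobulk left out the p21 estimates ranged from -0.15 to 0.82 for *Mkx* in chondrocyte-like cells, from -0.57 to 0.25 for *Scx* and -1.44 to 0.54 for *Tnmd* in tenocyte-like cells, and from -0.25 to 0.33 for *Scx* and -1.65 to 0.60 for *Kera* in all kept cells. The tdT+ estimates ranged from -0.19 to 0.21 for *Scx* and -0.54 to 0.30 for *Mkx* in chondrocyte-like cells. In tenocyte-like cells they ranged from -2.21 to -1.36 for *Scx*, -4.85 to -2.46 for *Tnmd*, -4.09 to -2.10 for *Mkx* and -5.40 to -2.56 for *Kera*, with the lowest of each without the tdT+ control of collection 2. In all kept cells they ranged from -0.69 to -0.10 for *Scx* and -1.32 to -0.49 for *Tnmd* (nearest 0 without the tdT- control of collection 2), -0.58 to -0.38 for *Mkx*, and -3.90 (without the tdT+ control of collection 2) to -1.47 (without the tdT- p21 of collection 2) for *Kera*. *Tnmd* in chondrocyte-like cells ranged from -6.47 to -1.40 CPM for the fractions (-5.02 with the pool block, exact permutation p = 0.125) and from -4.87 to 0.56 for p21 (0.26 without the cell of most UMIs), and its share from -0.19 to 2.04 percentage points for p21 (-0.078 when thinned). Shares of kept cells for p21 ranged from -0.25 to 3.07 points for tenocyte-like cells, -3.61 to 3.42 for *Scx*, -1.66 to 2.10 for *Tnmd* and -0.94 to 1.69 for *Kera*, and the *Tnmd* share between fractions from -2.41 to 1.35. The *Scx* share between fractions was 6.42 to 12.6 points higher in tdT+ cells with 1 pseudobulk left out, and turned to -2.81 points when thinned. Thinned shares were 24.7, 21.9, 12.4 and 9.55% in tenocyte-like and 1.92, 0.768, 2.82 and 0.128% in chondrocyte-like cells for *Scx*, *Tnmd*, *Mkx* and *Kera*.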
